A study of Mus musculus with 899 samples.

Results

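The miR-29 family is represented here by mmu-miR-29a-3p, mmu-miR-29b-3p and mmu-miR-29c-3p, the 3p strands of 3 closely related mouse microRNA. They were taken by name, as 3 rows of the 1915 mature miRNA in the count table, and were followed over all strains, treatments and time points. The small-RNA reads came from 899 plasma samples of 196 mice of strains C3Hf/Sed/Kam (C3H) and C57Bl/6, whose thorax alone was given one X-ray exposure, with the rest of the body under lead, or a sham exposure. The groups were irradiated and sham mice of each strain, bled before irradiation (PT), at day 2 (D2) or day 5 (D5), and at monthly points M1 to M4 in C3H and M1 to M6 in C57Bl/6, which gave 32 groups of 8 to 68 samples. Mice entered the experiment at 8 to 12 weeks of age, both sexes were used, and the labels name no engineered allele or drug in any group. Each strain was run as 2 cohorts, and D2 and D5 samples came from different mice. For 4 mice there was no PT sample, and irradiated C57Bl/6 females of the first cohort numbered 16 at PT and 20 at M1. Only the first cohort of each strain was followed beyond M1, so the later irradiated groups hold only mice that were still sampled then.

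The miR-29 miRNA bind the 3′ ends of messenger RNA for collagens, fibrillin, elastin and other proteins of the extracellular matrix and hold their output down. TGF-β, the main fibrosis-promoting cytokine, lowers their transcription in fibroblasts, and for this reason the family is known as antifibrotic in lung, heart, kidney and liver. In plasma the same molecules travel in vesicles, in protein complexes and in debris of many tissues, so a plasma level is a mixture from many organs. In such a bulk sample, fewer cells of a type and less RNA per cell cannot be told apart.

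The mature sequences are shown because the members differ in very few bases and yet moved apart in these samples. They are written 5′ to 3′ from RefSeq (GRCm38.p6), with the seed, bases 2 to 8, in capitals.
mmu-miR-29a-3p: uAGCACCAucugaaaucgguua
mmu-miR-29b-3p: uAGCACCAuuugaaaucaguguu
mmu-miR-29c-3p: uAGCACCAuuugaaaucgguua
The seed AGCACCA, which sets most of a miRNA's targets, was shared by these 3 and by no other of 1679 mature mouse names in the table. Counted from 1 at the 5′ end, miR-29a-3p and miR-29c-3p differed at 1 position (C10U, the miR-29a-3p base first). From miR-29a-3p to miR-29b-3p there were 4 substitutions (C10U, G18A, U21G and A22U), and miR-29b-3p was 23 bases long against 22 for the others. From miR-29b-3p to miR-29c-3p there were 3 (A18G, G21U and U22A), so that miR-29b-3p stood apart by its 3′ end.

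The genes lie in a pair of clusters on GRCm38. On chromosome 6, minus strand, Mir29a (chr6:31062660-31062747) and Mir29b-1 (chr6:31063023-31063093) are separated by 275 bases. On chromosome 1, plus strand, Mir29b-2 (chr1:195037040-195037120) and Mir29c (chr1:195037547-195037634) are separated by 426 bases. In GENCODE M21 the Mir29b-1 hairpin overlaps an exon of the lincRNA gene Gm27019. Both hairpins on chromosome 1 overlap an exon of the processed transcript A330023F24Rik and lie opposite an exon of Cd46, a complement regulator encoded on the minus strand, whereas the Mir29a hairpin overlaps no other annotated gene. The 2 copies of Mir29b give the same mature sequence, so reads of miR-29b-3p cannot be assigned to either chromosome.

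All 3 members had reads in all 899 samples. MiR-29a-3p was the most abundant, with a median of 3153 reads per sample (range 190 to 66267) and 2126 CPM, that is, counts scaled to a fixed library size. MiR-29c-3p had a median of 866 reads (64 to 20468) and 585 CPM, and miR-29b-3p had 622 reads (29 to 16898) and 425 CPM. By median CPM they ranked 44, 71 and 82 among all miRNA of the table. As each read stands for 1 short molecule of 22 or 23 bases, no length scaling was applied to these levels, and differences in how well each sequence is cloned were not measured. Together the members took a median of 0.325% of all reads (0.0651% to 1.04%).

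Within the family, miR-29a-3p held a median of 66.4% of the reads (32.7% to 80.3%), miR-29c-3p 18.8% (4.07% to 32.5%) and miR-29b-3p 13.6% (1.92% to 63.2%). MiR-29a-3p exceeded miR-29c-3p in 899 of 899 samples and miR-29b-3p in 881. The order of the other pair was not fixed, with miR-29c-3p above miR-29b-3p in 583 samples and below it in 316. The opposite strands of the same hairpins were rare: miR-29a-5p had reads in 796 samples (median 9), miR-29c-5p in 710 (median 5), miR-29b-1-5p in 137 and miR-29b-2-5p in 1. The 5p strand made up 0.283% of the reads of both miR-29a arms and 0.731% of both miR-29c arms.

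For all other comparisons a level is log2 CPM after scaling of the libraries by the trimmed mean of M-values (TMM), and a difference is a log2 difference fitted with edgeR's quasi-likelihood test over 483 miRNA with enough reads. A miRNA was called when its Benjamini-Hochberg adjusted p was below 0.05, and SE is the standard error. Total reads per sample ran from 206490 to 11814515 (median 1475030), with group medians of 855374 to 2882714, and 1 miRNA took a median of 46.2% of the reads. Every listed marker of red blood cells, leukocytes, endothelium and platelets, hepatocytes and muscle was in the table and passed the filter on low counts.

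MiR-29a-3p and miR-29c-3p moved together from sample to sample, and miR-29b-3p did not move with them. After the group means were removed, Pearson's r over the 899 samples was 0.83 between miR-29a-3p and miR-29c-3p, 0.13 between miR-29a-3p and miR-29b-3p, and -0.16 between miR-29b-3p and miR-29c-3p. These values describe samples that share mice and library preparations, and carry no test. MiR-29b-3p varied most within groups (pooled SD 0.92 on the log2 scale), against 0.37 for miR-29a-3p and 0.49 for miR-29c-3p. A large part of that spread lay between the cohorts and sexes of a group: within cohort and sex the SDs were 0.76, 0.26 and 0.37.

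**Figure D1:**
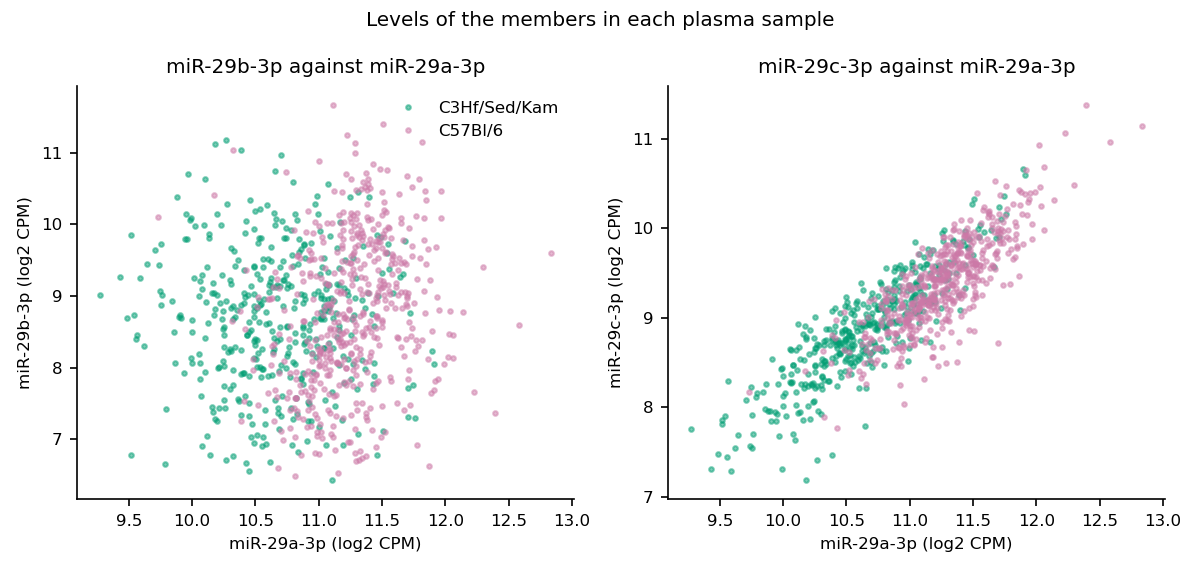
Level of miR-29b-3p (left) and miR-29c-3p (right) against miR-29a-3p, in log2 CPM, in each of 899 plasma samples, coloured by strain. MiR-29c-3p rises with miR-29a-3p in a narrow band (r = 0.83 after removal of group means), whereas miR-29b-3p forms a cloud (r = 0.13).

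Ranked by r over 482 other miRNA, miR-29a-3p was the closest to miR-29c-3p and the reverse. For miR-29b-3p, miR-29a-3p ranked 112 and miR-29c-3p 434. The next closest to miR-29a-3p were miR-361-5p (r = 0.65), miR-22-3p (0.59), miR-152-3p (0.57) and miR-141-3p (0.55). The same 4 were the next closest to miR-29c-3p, with r of 0.67, 0.64, 0.75 and 0.69. The 5 closest to miR-29b-3p were miR-142a-3p (r = 0.89), a miRNA abundant in blood leukocytes, and miR-98-5p (0.87), let-7a-5p (0.83), let-7d-5p (0.82) and let-7f-5p (0.80), which are relatives in the let-7 family.

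The sequences of these companions are given because they differ at the same end that sets miR-29b-3p apart, with the last 3 bases in capitals.
mmu-miR-29b-3p: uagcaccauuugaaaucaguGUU
mmu-let-7a-5p: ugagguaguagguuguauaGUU
mmu-miR-98-5p: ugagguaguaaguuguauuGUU
mmu-miR-142a-3p: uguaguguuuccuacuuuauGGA
mmu-miR-29a-3p: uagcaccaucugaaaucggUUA
mmu-miR-361-5p: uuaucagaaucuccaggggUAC
mmu-miR-152-3p: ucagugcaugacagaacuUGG
Of the 5 companions of miR-29b-3p, 4 ended in GUU as it does, but these 4 are one family and not independent. Of 415 tested miRNA with 1 RefSeq sequence, 17 (4.1%) ended in GUU. The shared ending was noticed after the correlations were seen, and the part of sequence in the correlations was not tested.

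Before irradiation the strains differed in all 3 members, and not in the same direction. Over both treatments at PT, miR-29a-3p was higher in C57Bl/6 than in C3H by 0.94 (SE 0.058, adjusted p = 7.136e-50, edgeR). In C3H sham mice its lowest, median and highest levels at PT were 9.43, 10.21 and 10.86, and in C57Bl/6 sham mice 10.60, 11.13 and 11.69, so that the groups overlapped only at their edges. MiR-29c-3p was higher in C57Bl/6 by 0.82 (SE 0.077, adjusted p = 5.676e-24), with 7.29, 8.26 and 9.22 in C3H sham and 8.70, 9.21 and 9.81 in C57Bl/6 sham mice. MiR-29b-3p was lower in C57Bl/6 by this fit, with a difference of -0.52 (SE 0.142, adjusted p = 0.000877), and its groups overlapped widely (8.11, 9.33 and 11.03 against 6.80, 8.21 and 10.85). The background was high, since 50.7% of the tested miRNA were called for this comparison.

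The direction for miR-29b-3p was not the same in the 2 cohorts of each strain. Between the first cohorts miR-29b-3p was lower in C57Bl/6 by a difference of -1.91 (SE 0.189, adjusted p = 2.193e-21), and between the second cohorts it was higher by 0.52 (SE 0.181, adjusted p = 0.0122). MiR-29a-3p was higher in C57Bl/6 in both (1.02, SE 0.062, and 0.89, SE 0.062), and so was miR-29c-3p (1.15, SE 0.087, and 0.61, SE 0.086). Of the tested miRNA, 51.3% were called between the first cohorts and 37.9% between the second. Cell type markers also differed between the strains at PT, against 50.7% of all tested miRNA called. In C57Bl/6, 4 of 4 listed red blood cell miRNA were lower and 2 of 2 endothelial and platelet miRNA higher. Of 7 leukocyte miRNA 1 was higher and 3 lower, and of 4 hepatocyte miRNA 2 were lower. Of 6 muscle and heart miRNA 1 was higher and 1 lower. Sample medians of the summed red blood cell level were 15.17 in C57Bl/6 sham against 15.46 in C3H sham mice (log2 CPM without TMM scaling). The part of these markers in the member differences was not tested.

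At PT, 1 member differed between the sexes, in 1 strain. In C3H, miR-29b-3p was higher in females by 0.59 (SE 0.188, adjusted p = 0.0212, edgeR), where 13.3% of 543 tested miRNA were called. MiR-29a-3p was 0.21 higher (SE 0.083, adjusted p = 0.0677) and miR-29c-3p 0.05 (SE 0.110), neither of which was called. In C57Bl/6 no member was called (0 at an unadjusted p below 0.05 as well, 0 by limma-voom), with differences of 0.14, -0.21 and 0.16 and 12.2% of miRNA called.

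In sham mice the members changed over the months without radiation. The F test over all times was called for all 3 members in both strains, with adjusted p of 8.556e-16, 0.00125 and 2.811e-10 in C3H and 1.569e-06, 8.063e-08 and 1.836e-06 in C57Bl/6 (miR-29a-3p, miR-29b-3p, miR-29c-3p, edgeR). The background was again high, at 46% of the tested miRNA in C3H and 62.9% in C57Bl/6. These tests set all sham mice together, and since the samples after M1 come from the first cohort alone while PT, D2, D5 and M1 hold both cohorts, the times were also compared within the first cohorts, an alternative chosen after seeing the data. There the F test was called for all 3 members in both strains (edgeR, largest adjusted p 4.342e-08, with 54.9% of the tested miRNA called in C3H and 58% in C57Bl/6).

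In C3H sham mice of the first cohort, miR-29a-3p lay above its PT level at every later time, by 0.54 (SE 0.120, D5) to 1.48 (SE 0.102, M1). MiR-29c-3p did the same, by 0.66 (SE 0.167, D5) to 1.84 (SE 0.144, M1), and both were called at all 6 times. MiR-29b-3p lay below its PT level, with differences of -0.57 (SE 0.295, M2, not called) to -1.97 (SE 0.398, D2), and was called at the other 5 times. In C57Bl/6 sham mice of the first cohort miR-29b-3p lay above PT, by 0.46 (SE 0.296, M1, not called) to 2.32 (SE 0.309, M6), and was called at the other 7 times. MiR-29a-3p was called at M2 to M6, by 0.26 (SE 0.0997, M6) to 0.64 (SE 0.100, M5), and miR-29c-3p at M2 to M5, by 0.44 (SE 0.139, M2) to 0.61 (SE 0.140, M3). Thus in the first cohorts miR-29a-3p and miR-29c-3p lay above PT at M2 to M4 in both strains, whereas miR-29b-3p lay on opposite sides of it. These directions were not seen throughout the second cohorts. In second-cohort C3H sham mice, mean miR-29c-3p was 8.79 in females and 8.76 in males at PT, and 8.40 and 8.73 at M1. Their mean miR-29b-3p was 9.37 and 8.65 at PT and 9.29 and 9.73 at D2. In second-cohort C57Bl/6 sham mice mean miR-29b-3p was 8.87 and 9.61 at PT and 7.71 and 8.56 at D2.

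**Figure D2:**
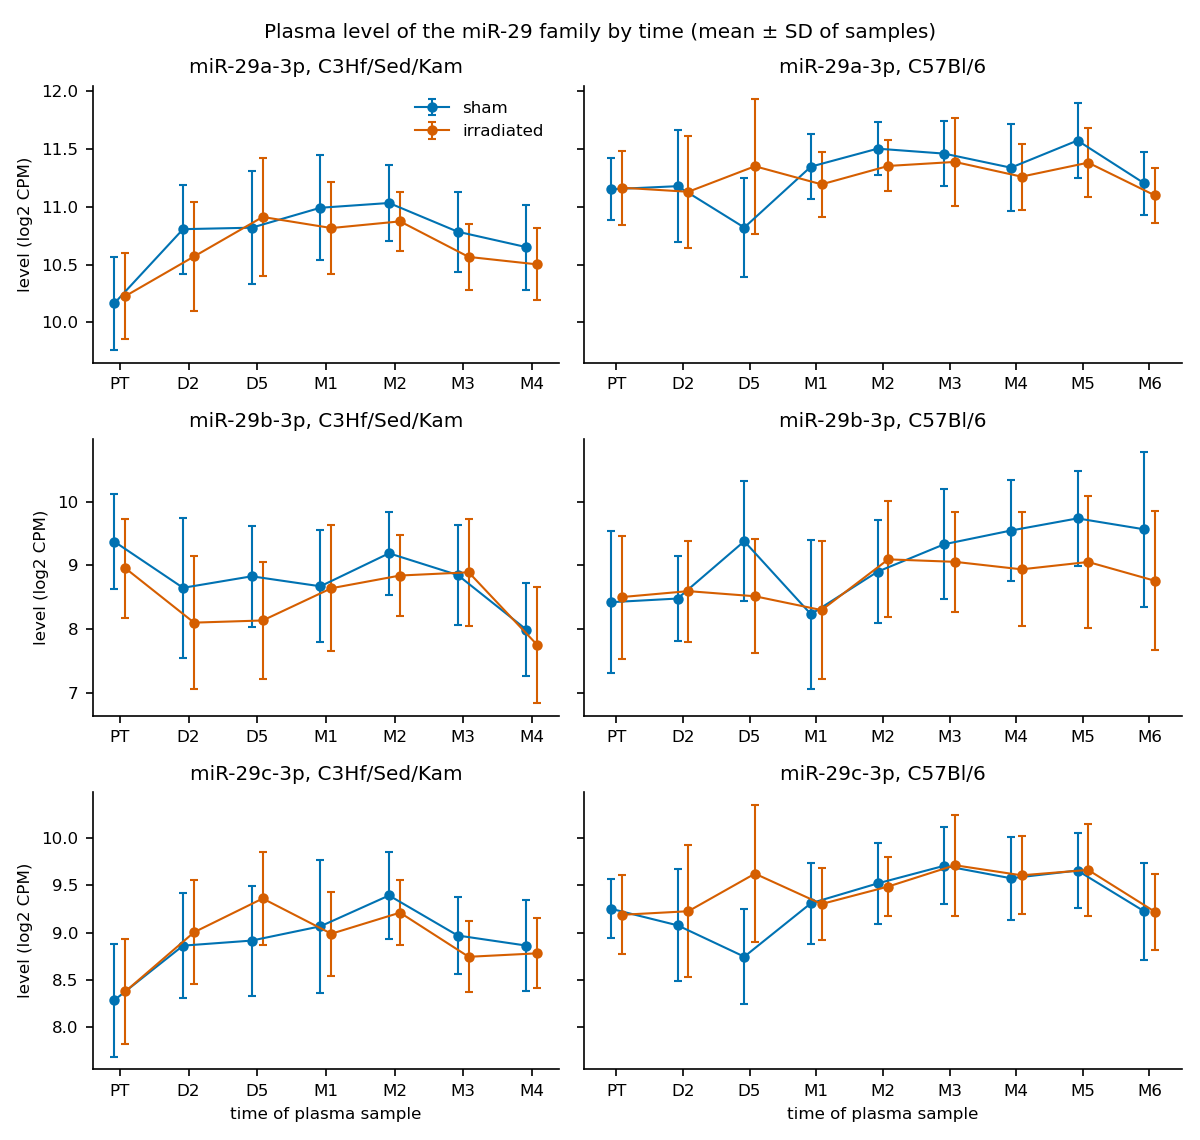
Mean level (log2 CPM) of each member at each time point in sham (blue) and irradiated (orange) mice of both strains, with bars of 1 SD over samples. PT to M1 hold both cohorts and later points the first cohort alone. At D5 in C57Bl/6 miR-29a-3p averaged 11.35 in irradiated and 10.82 in sham mice, miR-29b-3p 8.52 and 9.38, and miR-29c-3p 9.62 and 8.75.

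Over the 32 groups, of which those from PT to M1 hold both cohorts, mean levels of miR-29a-3p ran from 10.16 (SD 0.41, n = 32, C3H sham PT) to 11.57 (SD 0.32, n = 16, C57Bl/6 sham M5). Those of miR-29b-3p ran from 7.75 (SD 0.91, n = 17, C3H irradiated M4) to 9.74 (SD 0.75, n = 16, C57Bl/6 sham M5). Those of miR-29c-3p ran from 8.29 (SD 0.59, n = 32, C3H sham PT) to 9.71 (SD 0.53, n = 31, C57Bl/6 irradiated M3). In no member did any 2 neighbours in this order, of 31 pairs, lie further apart than the pooled SD within groups. The widest gaps were 0.27, 0.24 and 0.37.

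To see whether thoracic radiation moved the family in plasma, each irradiated group was set against its own sham group. Before irradiation no member was called in either strain, and the share of all tested miRNA called was 0% in C3H and 0% in C57Bl/6 by edgeR, with 32 and 25 miRNA at an unadjusted p below 0.05. MiR-29b-3p already lay lower in the C3H mice that were later irradiated, by -0.38 (SE 0.198, unadjusted p = 0.05225).

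In C3H, 0 of 18 member comparisons after irradiation were called by edgeR, 0 by limma-voom and 0 by DESeq2, with 4, 5 and 3 at an unadjusted p below 0.05. With cohort and sex within each time as covariates in limma-voom, chosen after seeing the data, 3 were called: miR-29a-3p at D2 (-0.24, adjusted p = 0.0451) and M1 (-0.19, adjusted p = 0.0330) and miR-29c-3p at D5 (0.45, adjusted p = 0.00496). That fit called 53 of 483 miRNA at D2, 28 at D5 and 21 at M1. In the first cohort alone miR-29b-3p was called at D5 (-1.32, adjusted p = 0.00437, edgeR). The share of all tested miRNA called in that single-cohort fit is not given here, so this call is not shown to stand out from it. In the main edgeR fit over both cohorts, the share of all tested miRNA called was 4.97% at D2, 3.11% at D5, 3.31% at M1, 0.621% at M2, 2.07% at M3 and 0.414% at M4. Differences of miR-29a-3p ran from -0.23 (SE 0.117, M3) to 0.10 (SE 0.115, D5), with 5 of 6 below 0. Those of miR-29b-3p ran from -0.58 (SE 0.278, D5) to 0.09 (SE 0.292, M3). Those of miR-29c-3p ran from -0.24 (SE 0.155, M3) to 0.42 (SE 0.154, D5, adjusted p = 0.1211), the value nearest to a call. The 95% intervals (normal approximation) of miR-29a-3p reached down to -0.46 and up to 0.33.

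The F test for any effect over the 6 times in C3H gave adjusted p of 0.0482 for miR-29a-3p, 0.4265 for miR-29b-3p and 0.0884 for miR-29c-3p (edgeR, 15.5% of miRNA called). When limma-voom blocked on the mouse, which was bled repeatedly, the adjusted p of miR-29a-3p was 0.0929 (random block) and 0.737 (fixed block), so that this call was lost. It was also lost with limma-voom without a block (adjusted p = 0.0569) and with DESeq2's size factors (0.2472). With cohort as a covariate miR-29c-3p was called as well, at an adjusted p of 0.0261, where 81 of 483 miRNA were called. With cohort and sex within each time as covariates in limma-voom, an alternative chosen after seeing the data, miR-29c-3p (0.00390) and miR-29b-3p (0.0466) were both called. There 98 of 483 miRNA were called.

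In C57Bl/6, 3 of 24 member comparisons after irradiation were called, all at D5 and in opposite directions. The share of all tested miRNA called was 6.63% at D2, 14.1% at D5, 3.73% at M1, 3.31% at M2, 1.66% at M3, 4.76% at M4, 3.52% at M5 and 0.414% at M6. The share at D5 was 4.15% of 482 miRNA without the females of cohort 2. MiR-29c-3p was 1.98-fold higher in irradiated mice at D5 (log2 difference 0.98, SE 0.159, adjusted p = 6.534e-08, edgeR). Its lowest, median and highest levels were 8.63, 9.34 and 11.38 in 32 irradiated mice and 7.89, 8.73 and 9.55 in 16 sham mice. MiR-29a-3p was 1.51-fold higher (0.59, SE 0.118, adjusted p = 1.916e-05), with 10.31, 11.33 and 12.58 against 9.73, 10.94 and 11.32. For both, the upper part of the irradiated group lay above every sham mouse, while the lower parts overlapped.

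MiR-29b-3p was lower in irradiated C57Bl/6 mice at D5, at 0.561 of the sham level (-0.83, SE 0.277, adjusted p = 0.0234, edgeR), with 7.25, 8.38 and 10.63 against 7.92, 9.73 and 11.04. The groups overlapped over most of their range. By limma-voom its adjusted p was 0.0586, with a random block for the mouse 0.0632 and with a fixed block 0.1995, so that the call was lost, although the difference stayed at -0.81, -0.80 and -0.78. Under both blocks the calls of miR-29a-3p (adjusted p = 0.000232 and 0.00767) and miR-29c-3p (4.25e-06 and 0.000149) held. The opposite strands were not called at D5, at -0.07 (SE 0.419) for miR-29a-5p and 0.85 (SE 0.542) for miR-29c-5p. The sham group itself lay away from its PT level at D5, over both cohorts. It differed by -0.30 (SE 0.116) for miR-29a-3p, 0.75 (SE 0.277) for miR-29b-3p and -0.46 (SE 0.155) for miR-29c-3p. Mean levels of irradiated mice were 11.17, 8.50 and 9.19 at PT and 11.35, 8.52 and 9.62 at D5, in the same order.

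At the other times in C57Bl/6 no member was called. MiR-29a-3p differed by -0.20 (SE 0.124, M5) to -0.04 (SE 0.115, M3), below 0 at 7 of 7 times by edgeR. This direction depended on the setting. At D2 the difference of miR-29a-3p was 0.05 by DESeq2. With a fixed block for the mouse it was 0.003 at M3, 0.04 at M4 and 0.06 at M6, none of them called. MiR-29c-3p differed by -0.06 (SE 0.148, M2) to 0.20 (SE 0.153, D2). MiR-29b-3p was 0.20 (SE 0.286) at D2, 0.04 (SE 0.199) at M1, 0.26 (SE 0.281) at M2 and -0.37 (SE 0.281) at M3. It was -0.54 (SE 0.283) at M4, -0.49 (SE 0.305) at M5 and -0.91 (SE 0.417) at M6, where the unadjusted p was 0.02883 and the adjusted p 0.527 with 8 irradiated mice left. The F test over the 8 times was called for all 3 members, with adjusted p of 0.000382, 0.0182 and 4.525e-05 (edgeR, 25.3% of miRNA called), of which that of miR-29b-3p was 0.1772 with a fixed block for the mouse.

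**Figure D3:**
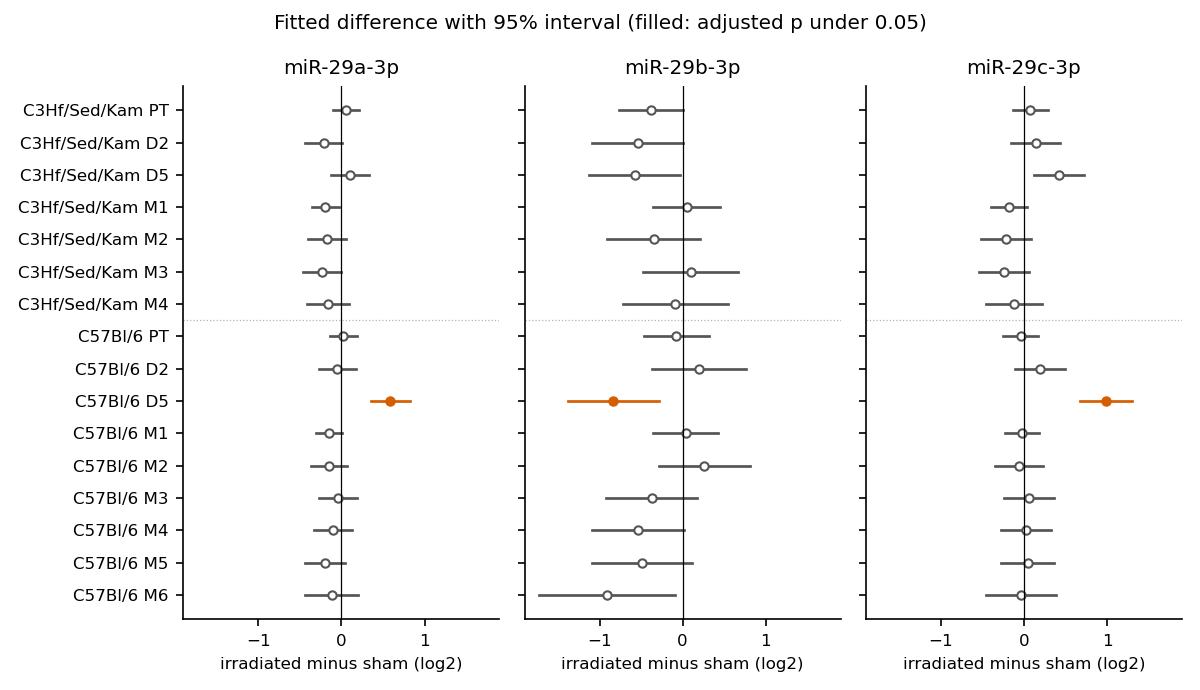
Fitted difference between irradiated and sham mice (log2) with its 95% interval, for each member (panels), strain and time point (rows). Filled orange points have an adjusted p below 0.05: at D5 in C57Bl/6, 0.59 for miR-29a-3p, -0.83 for miR-29b-3p and 0.98 for miR-29c-3p.

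The difference at D5 was tested against those around it. In C57Bl/6 the irradiation effect at D5 exceeded that at D2 by 0.64 (SE 0.162, adjusted p = 0.00416) for miR-29a-3p and by 0.79 (SE 0.215, adjusted p = 0.0101) for miR-29c-3p, and was -1.03 (SE 0.403, adjusted p = 0.1056) for miR-29b-3p (edgeR, 6.63% of miRNA called). This comparison was not refitted without the females of cohort 2. The effect at D5 in C57Bl/6 minus that in C3H was 0.49 (SE 0.162, adjusted p = 0.09295), -0.26 (SE 0.401, adjusted p = 0.907) and 0.56 (SE 0.215, adjusted p = 0.187), with 1.86% of miRNA called. Over the 6 shared times the test of the strain difference called 0 of 3 members (0 at an unadjusted p below 0.05, 0 by limma-voom; 4.35% of miRNA called). The calls in one strain and not in the other are therefore not shown to differ between strains.

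The C57Bl/6 differences of miR-29a-3p and miR-29c-3p at D5 were larger in the second cohort. The effect in cohort 2 exceeded that in cohort 1 by 1.06 for miR-29a-3p (SE 0.173, adjusted p = 1.053e-07) and by 1.12 for miR-29c-3p (SE 0.243, adjusted p = 0.000160), and was -0.79 for miR-29b-3p (SE 0.513, adjusted p = 0.3088; edgeR, 17.6% of miRNA called). With cohort 1 alone, no member was called, at 0.05, -0.23 and 0.34 for miR-29a-3p, miR-29b-3p and miR-29c-3p. With cohort 2 alone all 3 were, at 0.95, -1.29 and 1.31. The share of all tested miRNA called in these single-cohort fits is not given here. The member counts are therefore not shown to stand out from it.

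Within cohort and sex, 8 irradiated and 4 sham mice could be compared by an exact two-sided permutation test, adjusted over 12 tests. In females of cohort 2 the groups did not overlap for any member, at 1.56 for miR-29a-3p, -2.54 for miR-29b-3p and 1.91 for miR-29c-3p, each with p = 0.00202, the smallest this design allows (adjusted p = 0.00808). In males of cohort 2 miR-29a-3p differed by 0.64 (p = 0.00404, adjusted p = 0.0121, permutation) without overlap and miR-29c-3p by 0.96 (p = 0.00606, adjusted p = 0.0145, permutation), while miR-29b-3p was at -0.16 with wide overlap. In cohort 1 none passed after adjustment, the nearest being miR-29c-3p in males at 0.45 (p = 0.0465, adjusted p = 0.0929, permutation). The share of all tested miRNA without overlap in these sets was not computed. The lack of overlap is therefore not shown to be particular to the family.

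**Figure D4:**
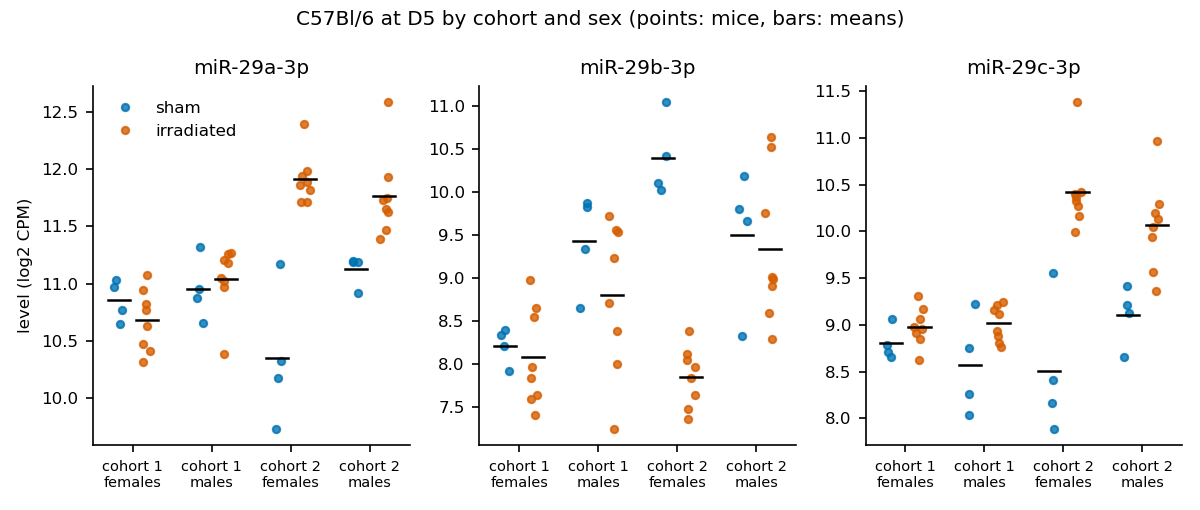
Level (log2 CPM) of each member in every C57Bl/6 mouse at D5, split by cohort and sex, with means as black bars. Sham females of cohort 2 average 10.35, 10.39 and 8.50 for miR-29a-3p, miR-29b-3p and miR-29c-3p, against 11.91, 7.85 and 10.42 in irradiated females of that cohort.

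The 4 sham females of cohort 2 stood apart at D5. Their reads of miR-29a-3p were 515, 263, 190 and 3478, and of miR-29b-3p 846, 311, 245 and 1559, so that miR-29b-3p exceeded miR-29a-3p in 3 of the 4, which happened in 18 of all 899 samples, 9 of the others being C3H females of cohort 1 bled before irradiation. In the 8 irradiated females of the cohort, miR-29a-3p had 3873 to 9103 reads and miR-29b-3p 203 to 662. Those 3 sham libraries held 613538, 424138 and 419427 reads in total, the fourth 1406579, and the irradiated ones 965579 to 3012768. They differed in other miRNA too: let-7a-5p lay at 13.43 to 16.11 in the 4 sham and 11.12 to 12.44 in the 8 irradiated females (log2 CPM).

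The marker lists were summed in the same mice, as log2 CPM without TMM scaling. The sums are therefore on another scale than the member and let-7a-5p levels above. The summed level of the 4 red blood cell miRNA was 11.72 to 14.21 in these sham females and 13.93 to 14.82 in the irradiated ones, and that of the 4 hepatocyte miRNA 10.70 to 13.03 against 12.41 to 13.59. The 7 leukocyte miRNA summed to 13.78 to 15.02 against 13.92 to 14.81, and the 2 endothelial and platelet miRNA to 13.86 to 15.49 against 14.73 to 16.08. The 6 muscle and heart miRNA summed to 12.22 to 15.78 against 11.30 to 15.52, with miR-133b-3p and miR-208a-3p at 0 in all 4 sham females. Without TMM scaling, the red blood cell and hepatocyte sums thus reached lower in the sham females, while the leukocyte and muscle ranges overlapped for the most part. Sums after TMM scaling were not computed. The part of these libraries' depth and composition in the member differences was not tested. Without the females of cohort 2 at D5, miR-29c-3p was still called at 0.66 (SE 0.179, adjusted p = 0.0104, edgeR), but miR-29a-3p was 0.32 (SE 0.131, adjusted p = 0.147), miR-29b-3p was -0.18 (SE 0.310, adjusted p = 0.8615), and no member passed the F test over all times (adjusted p of 0.2299, 0.1326 and 0.1186).

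A ratio of 2 members within a sample does not depend on how libraries are scaled, so the log2 ratios of miR-29b-3p and of miR-29c-3p to miR-29a-3p (counts plus 0.5) were compared between irradiated and sham mice with two-sided permutation tests, exact at M6 in C57Bl/6, and adjusted over 28 tests. Of these, 6 passed, 5 of them at D2 or D5. The ratio of miR-29c-3p to miR-29a-3p was higher after irradiation in both strains. In C3H it was -1.57 (SD 0.21, n = 32) against -1.95 (SD 0.31, n = 16) at D2, a difference of 0.38 (SE 0.086, adjusted p = 0.000840, permutation). At D5 it was -1.55 (SD 0.24) against -1.91 (SD 0.26), a difference of 0.35 (SE 0.076, adjusted p = 0.000840, permutation). In C57Bl/6 it was -1.73 (SD 0.30) against -2.08 (SD 0.34) at D5, a difference of 0.34 (SE 0.101, adjusted p = 0.00567, permutation), and differed by 0.15 (SE 0.055, adjusted p = 0.049, permutation) at M1. At D2 in C57Bl/6 the difference of 0.20 (SE 0.075) had an adjusted p of 0.1119 (permutation), and was 0.34 (p = 0.00013, permutation) without the females of cohort 1. The M1 difference in C57Bl/6 was 0.11 (p = 0.1034, permutation) without the males of cohort 1 and 0.14 (p = 0.0575, permutation) without its females.

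This shift was seen across the cohorts and sexes. At D5 the ratio of miR-29c-3p to miR-29a-3p was higher in irradiated mice in 4 of 4 cohort-and-sex sets in C57Bl/6, by 0.32 to 0.36, and in 4 of 4 in C3H, by 0.22 to 0.50. At D2 it was higher in 4 of 4 in C3H (0.18 to 0.62) and in 3 of 4 in C57Bl/6 (-0.21 to 0.41). Taken alone, 2 of these sets at D2 and 1 at D5 passed in C3H and 0 at either time in C57Bl/6, by exact permutation tests adjusted over 32. Without the females of cohort 2 in C57Bl/6 at D5 the difference was 0.34 (p = 0.00174, permutation). Before irradiation the same ratio differed between the later irradiated and the sham mice by 0.03 (SE 0.076) in C3H and by -0.08 (SE 0.056) in C57Bl/6, with adjusted p of 0.7226 and 0.3872 (permutation). The effect of leaving out a single cohort and sex was small at D2 and D5 in C3H, with 0.30 to 0.44 and 0.30 to 0.40. From M2 on, differences ran from -0.02 to 0.20 and none passed.

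The ratio of miR-29b-3p to miR-29a-3p was lower in irradiated mice of both strains at D5, and did not pass at the other times. In C3H it was -2.78 (SD 0.70, n = 32) against -1.99 (SD 0.80, n = 16), a difference of -0.79 (SE 0.236, adjusted p = 0.00644, permutation). In C57Bl/6 it was -2.84 (SD 1.05) against -1.44 (SD 1.16), a difference of -1.40 (SE 0.345, adjusted p = 0.00121, permutation). The C57Bl/6 difference was -0.49 (p = 0.1006, permutation) without the females of cohort 2, in whom the ratio was -4.06 in irradiated and 0.04 in sham mice. In C3H the sets ran from -1.55 to -0.13, below 0 in 4 of 4, and without the females of cohort 1 the difference was -0.54 (p = 0.0567, permutation). Before irradiation in C3H it was already -0.48 (SE 0.193, adjusted p = 0.0649, permutation).

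**Figure D5:**
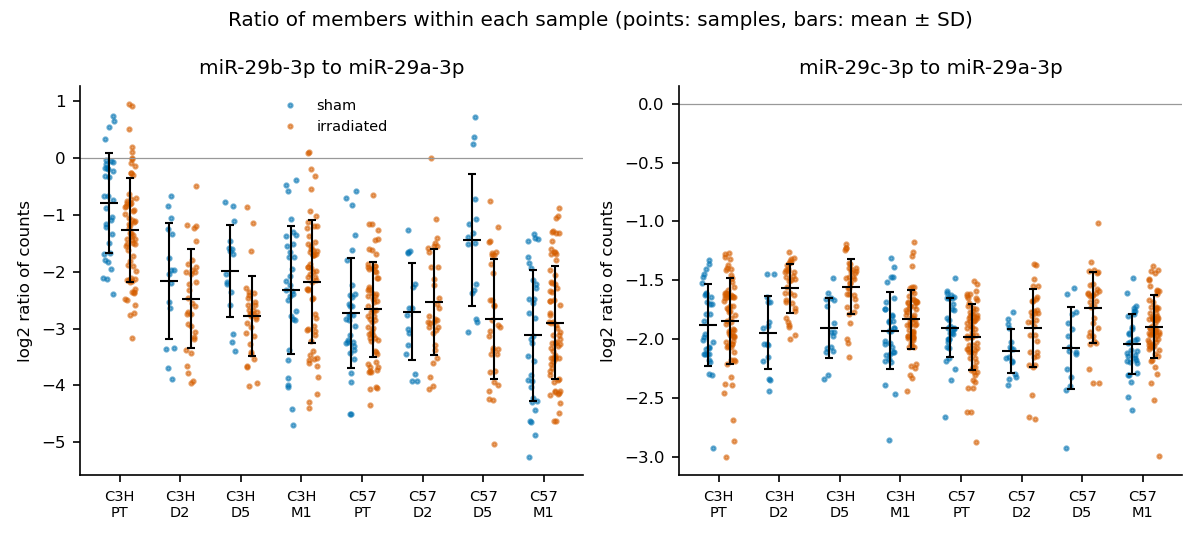
Log2 ratio of read counts of miR-29b-3p (left) and miR-29c-3p (right) to miR-29a-3p in each sample at PT, D2, D5 and M1, in sham (blue) and irradiated (orange) mice, with black bars for the mean ± SD. The right panel shows irradiated means above sham means at D2 and D5 in both strains, by 0.20 to 0.38.

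Both ratios moved with miR-142a-3p, the closest companion of miR-29b-3p. After removal of group means r was 0.88 for the ratio of miR-29b-3p and -0.44 for that of miR-29c-3p, and with total reads -0.11 and 0.04 (899 samples, a description that shares libraries). MiR-142a-3p was itself lower in irradiated mice at D5, at -1.54 (SE 0.251, adjusted p = 7.918e-08) in C57Bl/6 and -0.75 (SE 0.253, adjusted p = 0.0848, not called) in C3H (edgeR), and was -0.42 (SE 0.280, adjusted p = 0.4673, not called) in C57Bl/6 without the females of cohort 2. Its part in the ratio differences was not tested.

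The companions were also read at D5 in C57Bl/6, where 14.1% of the tested miRNA were called. Of the 4 nearest to miR-29a-3p and miR-29c-3p, 4 were higher in irradiated mice: miR-141-3p by 1.01 (SE 0.242), miR-152-3p by 0.53 (SE 0.162), miR-22-3p by 0.50 (SE 0.145) and miR-361-5p by 0.37 (SE 0.136). Of the 5 nearest to miR-29b-3p, 4 were lower: let-7a-5p by -1.50 (SE 0.232), miR-98-5p by -1.09 (SE 0.272), let-7f-5p by -0.66 (SE 0.230) and miR-142a-3p as above, while let-7d-5p was at -0.37 (SE 0.234, not called). Without the females of cohort 2, 0 of these 9 were called in C57Bl/6 (edgeR, 0 at an unadjusted p below 0.05, 4.15% of miRNA called), and let-7a-5p was at 0.21 (SE 0.258), miR-98-5p at 0.15 (SE 0.306) and miR-141-3p at 0.52 (SE 0.270). In C3H at D5 none of the 9 was called by edgeR, where 3.11% of miRNA were.

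Other miRNA with roles in fibrosis were read beside the family. Of 15 listed as antifibrotic, among them the epithelial miR-200 family, the miR-30 family and let-7d-5p, 5 were called at D5 in C57Bl/6, 4 higher and 1 lower, with a median difference of 0.26 against -0.003 over all tested miRNA, of which 14.1% were called. Without the females of cohort 2, 1 of 15 was called, miR-30c-5p, which was lower by -0.64 (SE 0.190, adjusted p = 0.0210, edgeR), with 4.15% of miRNA called and a list median of 0.04. MiR-30a-5p was higher by 0.53 (SE 0.100, adjusted p = 4.968e-06, edgeR), and miR-200c-3p, which restrains epithelial-mesenchymal transition, was lower by -0.99 (SE 0.329, adjusted p = 0.0234). Without those females they were at 0.36 (SE 0.123) and -0.72 (SE 0.377), neither called. In C3H at D5 1 of 15 was called, lower, against 3.11% of all tested miRNA. Over all times, 4 of 15 passed the F test in C3H, against 15.5% of all tested miRNA, and 8 of 15 in C57Bl/6, against 25.3%, or 6 of 15 without those females, against 19.7%. MiR-200c-3p was called in both strains.

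The second list held miRNA that promote fibrosis or mark it. Of 9 listed as profibrotic, 5 were called at D5 in C57Bl/6, 3 higher and 2 lower (median -0.18), against 14.1% of all tested miRNA, and 2 in C3H, 1 in each direction, against 3.11%. In C57Bl/6 without the females of cohort 2, 2 of 9 were called, 1 in each direction (median -0.30), against 4.15%. MiR-34a-5p, a target of p53, was higher by 1.70 (SE 0.221) in C57Bl/6 and 1.80 (SE 0.219) in C3H, and miR-155-5p, a leukocyte miRNA, was lower by -1.41 (SE 0.189) and -0.79 (SE 0.191). These were the 2 called in C57Bl/6 without those females, at 1.38 (SE 0.254) and -0.88 (SE 0.217). Over all times, 3 of 9 passed in C3H (15.5% of all tested miRNA) and 7 of 9 in C57Bl/6 (25.3%), or 6 of 9 without those females (19.7%).

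The cell type markers of blood came next. Among leukocyte miRNA 4 of 7 were lower at D5 in C57Bl/6 and 3 of 7 in C3H, with miR-150-5p, a lymphocyte miRNA, at -1.10 (SE 0.146) and -1.29 (SE 0.145), against 14.1% and 3.11% of all tested miRNA called. In C57Bl/6 without the females of cohort 2, 2 of 7 were lower (4.15% of miRNA called), with miR-150-5p at -1.41 (SE 0.166). Over all times 5 of 7 passed in each strain, against 15.5% and 25.3%, and 4 of 7 in C57Bl/6 without the females of cohort 2 (19.7%).

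The other marker lists were read at D5 as well, against 14.1% of all tested miRNA called in C57Bl/6 and 3.11% in C3H. Of 4 red blood cell miRNA, 1 was higher in irradiated C57Bl/6 mice and 2 in C3H, with miR-144-5p higher by 1.52 (SE 0.291) and 1.14 (SE 0.280). Of 4 hepatocyte miRNA, 1 was higher and 1 lower in C57Bl/6 and 0 were called in C3H by edgeR, with miR-122-5p, the main liver miRNA, lower by -1.74 (SE 0.309) in C57Bl/6 and at -0.38 (SE 0.316, not called) in C3H. Of the 2 endothelial and platelet miRNA, miR-126a-5p was higher in C57Bl/6 by 0.69 (SE 0.137) and at 0.23 (SE 0.134, not called) in C3H. Of 6 muscle and heart miRNA 1 was called in C57Bl/6, miR-208a-3p, which had 0 reads in all 16 sham mice at D5, so that no fold is given. When the females of cohort 2 were left out, 1 of these 16 was called in C57Bl/6, miR-122-5p, which was lower (adjusted p = 2.321e-05, edgeR). Their part in the member differences was not tested.

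The sexes were compared in their response to radiation. Over D2, D5 and M1 no member was called in C3H (0 at an unadjusted p below 0.05, 0 by limma-voom, 0.737% of 543 miRNA called). In C57Bl/6 none was called either (edgeR, 5.16% of miRNA called), with miR-29b-3p at an adjusted p of 0.0799 and 1 of 3 below an unadjusted 0.05. Limma-voom called 0 of 3 and edgeR with DESeq2's size factors 1 of 3.

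In irradiated mice of the first cohorts, the M1 level was compared between mice with and without a later plasma sample, at M4 in C3H (17 and 13 mice) or M5 in C57Bl/6 (21 and 15 mice). The labels do not say why a mouse lacks a later sample. No member passed after adjustment over 6 tests at these times, and 1 had an unadjusted p below 0.05 (two-sided permutation tests). MiR-29c-3p in C57Bl/6 was 9.02 (SD 0.21) in mice sampled later and 9.25 (SD 0.35) in the others, a difference of -0.23 (SE 0.103, p = 0.0202, adjusted p = 0.121, permutation). In males alone it was -0.53 (SE 0.156, adjusted p = 0.00989, exact permutation test). MiR-29b-3p in C3H was 8.15 (SD 0.96) and 8.82 (SD 0.92), a difference of -0.67 (SE 0.347, adjusted p = 0.1706, permutation). MiR-29a-3p differed by 0.09 (SE 0.082) in C3H and -0.02 (SE 0.070) in C57Bl/6. With another later time point 3 tests passed by exact permutation. At M6 in C57Bl/6 (8 mice sampled and 28 not), miR-29c-3p was at -0.30 (adjusted p = 0.0281) and miR-29a-3p at -0.19 (adjusted p = 0.0379), and at M3 in C3H (27 and 3 mice) miR-29a-3p was at 0.35 (adjusted p = 0.0281).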

How the data were processed

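Small-RNA libraries were made from mouse plasma with a QIAseq miRNA kit, and the authors deposited 1 table of raw read counts per mature miRNA (build mm10) without normalization. Per the study's methods, hemolysed samples and runs of very low yield had been removed. Whether unique molecular identifiers were collapsed, and which miRBase release was used, is not given in the sources used here, so PCR copies may add to the spread. Reads of near-identical members could be misassigned by sequencing errors.

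Samples were grouped by the labels' strain, treatment and time, and are separate mice within a group. Counts were tested in R 4.3.3 with edgeR 4.0.16 (TMM factors 0.372 to 1.59, filterByExpr leaving 483 miRNA and 99.99% of reads, 867 residual degrees of freedom), over all 32 groups together, with Benjamini-Hochberg adjustment within each contrast. Log2 CPM used a prior count of 2. Ratios, single cohorts and sexes, and later sampling were compared by two-sided permutation tests (100000 resamples, exact where the smaller group had under 10 samples). Alternatives used limma 3.58.1 and DESeq2 1.42.0. The mouse numbers in the labels mark the same animal over time, and the mean correlation of deviations was 0.0854 within and -0.0005 between mice. The members, lists and tests were chosen with earlier results of these data known. Besides the members, the text names their 5p strands, the 5 miRNA most correlated with each member, and from each list at most 2 per strain with the smallest adjusted p for any irradiation effect. The edgeR script was tested on simulated data.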

Additional observations from a re-analysis of the deposited data

Results flagged for a closer look

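In C57Bl/6 the irradiation effect at D5 differed from that at D2, by 0.64 for miR-29a-3p and 0.79 for miR-29c-3p on the log2 scale, each by a test of the difference itself (edgeR, adjusted p = 0.00416 and 0.0101). Without the females of cohort 2, the effects at D5 were 0.32 and 0.66 (edgeR, adjusted p = 0.147 and 0.0104). The difference from D2 was not refitted without them. The D2 and D5 samples came from different mice.

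The effect at D5 in C57Bl/6 also differed between the cohorts, by 1.06 for miR-29a-3p and 1.12 for miR-29c-3p in cohort 2 over cohort 1 (edgeR, adjusted p = 1.053e-07 and 0.000160). Of the 4 sham females of cohort 2, 3 had total reads of 613538, 424138 and 419427, and the part of depth in this difference was not tested.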

How the results depend on the processing

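Ratios with 1 cohort and sex left out were judged by unadjusted permutation p, against a main call by adjusted p. Some of their kept, lost or gained calls may come from this unlike rule. The other recomputed values were judged by adjusted p. Over all alternatives, 1089 values of named miRNA were recomputed. Of these, 995 kept their direction and their side of the threshold, 28 lost a call, 13 gained one, 52 without a call changed sign and 1 called value changed sign. That value was miR-29b-3p between the strains before irradiation, at 0.52 when the second cohorts alone were compared. Of 144 recomputed counts of members called, 121 were unchanged within 1.5 times. By this rule a fall from 3 members to 2 counted as unchanged, as in C57Bl/6 at single times by limma-voom.

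In C3H, 0 members were called in the comparisons at single times, but 3 with cohort and sex within each time as covariates in limma-voom, an alternative chosen after seeing the data (miR-29a-3p at D2 and M1, miR-29c-3p at D5), and 1 with cohort 1 only (miR-29b-3p at D5). The F test in C3H called 1 member, against 3 with cohort and sex within each time, 2 with cohort as a covariate, and 0 with DESeq2's size factors, limma-voom, no filter, abundant miRNA only, the compared groups only, the study's normalization, and the mouse as a fixed or random replicate block. Before irradiation 2 members, not 1, differed between the sexes in C3H with no filter. In C57Bl/6 the 3 calls at D5 became 0 with cohort 1 only, 1 with males only, 1 without the females of cohort 2 at D5, and 0 in females or in males of cohort 1 alone, and the F test then went from 3 to 0 without the females of cohort 2. The call of miR-29b-3p at D5 in C57Bl/6 was also lost with cohort as a covariate (-0.72, adjusted p = 0.0571, edgeR). It was lost as well without the males of cohort 1 (-0.83, adjusted p = 0.0517, edgeR), by limma-voom and with either block for the mouse. The sex difference of the effect in C57Bl/6 had 1 member called with DESeq2's size factors and 1 with no filter. By later sampling, 1 member passed in males only and 3 with another later time point. The causes were not tested.

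With the mouse as a replicate block, 5 of 123 member values lost a call (among them miR-29a-3p in the C3H F test, at adjusted p = 0.0929 and 0.737, and miR-29b-3p at D5 in C57Bl/6), 0 gained one and 14 without a call changed sign. Leaving out the mice of 1 cohort and sex stood in for leaving out single replicates, as all groups held at least 8 samples. Member levels were refitted this way only at D5 in C57Bl/6 and in the F tests that include it. Ratios were recomputed this way only at D2, D5 and M1, and the other comparisons had no such check. Depth does not limit the detection of the members, which had reads in every sample, but a plasma level relative to all reads cannot show an absolute amount.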
